A study of Mus musculus with 4 samples.

Results

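Cholesterol synthesis and its control by the SREBP pathway were examined in RNA of mouse glomeruli, through 8 genes chosen by name: Hmgcs1, Idi1, Sqle, Lss, Cyp51 and Nsdhl, which encode enzymes of the pathway, and Srebf2 and Insig1, which encode its regulators. All 8 were found in the deposited table by the symbol of their Ensembl identifier, among 22809 genes, and all 8 passed the expression filter that left 18612 genes for testing. Poly(A) RNA of freshly isolated glomeruli, the capillary tufts that filter the blood, was sequenced at 3 weeks of age in 2 libraries of untreated mice labelled Control (WT) and 2 libraries labelled HDAC KO, a knockout of Hdac1 and Hdac2 restricted to podocytes, the epithelial cells that cover those capillaries. Each library pooled 2 mice, and the sources used here do not give the Cre driver, alleles, strain or sex. The question of the comparison is which transcripts of the whole glomerulus differ when podocytes are meant to lack both deacetylases.

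Cholesterol is built from acetyl-CoA, first through mevalonate to isoprenoids and squalene, and then through lanosterol to the finished sterol. The transcription factor SREBP-2, the product of Srebf2, is held in the endoplasmic reticulum by SCAP and the INSIG proteins while sterols are plentiful, and is cut and released to the nucleus when they are scarce. There it binds sterol regulatory elements, together with partners such as NF-Y and Sp1, in front of genes of synthesis and uptake, Insig1 and Srebf2 itself among them. The kidney makes cholesterol in many of its cells, the proximal tubule included.

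Of the 8 genes, 6 had both HDAC KO libraries below both controls (Hmgcs1, Idi1, Lss, Cyp51, Nsdhl and Insig1), Sqle had both above, and Srebf2 overlapped between the groups. As a ratio of mean TPM, the largest difference among the 8 was that of Cyp51 (3.93 times), from 74.8 ± 59.0 TPM in the controls to 19.0 ± 2.52 TPM under HDAC KO (SD, n = 2 each), followed by Hmgcs1 (1.99 times), from 126 ± 51.1 to 63.4 ± 1.14 TPM. TPM is a read count per length of gene, set to a common total per library. None of the 8 passed an adjusted p under 0.05 by limma, and their adjusted p lay between 0.168 and 0.863. The same test called 1 gene lower among all those tested (0.00537%) and no gene higher (0%).

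The members' counts are read against the whole table. Both HDAC KO values lay below both controls in 14.3% of all tested genes and above both in 36.7%. At an unadjusted p under 0.05, 4 of the 8 genes were lower (Hmgcs1, Insig1, Cyp51 and Nsdhl) and 0 higher, beside 4.46% lower and 13.4% higher over the table. The median log2 fold change of the 8 was -0.62, where that of all tested genes was 0.17. Median-ratio scaling, which sets the libraries to a common median gene, moved the table's median by 0.20 to -0.03 and the median of the 8 to -0.82. The 8 genes were chosen with earlier results of these data known, so these shares describe them and support no statement about the pathway.

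The regulatory sequence in front of the genes was read for the letters that SREBP and its partners are known to bind. RefSeq promoters on GRCm38.p6 were found for 7 of the 8 genes (not Sqle), and the 250 bases before each start were searched on both strands for TCACNCCA and CACCCCAC, which overlap each other and are core forms of the sterol regulatory element, for CCAAT, bound by NF-Y, and for GGGCGG, bound by Sp1. Hmgcs1 and Srebf2 held a sterol element core, and all 7 held CCAAT and GGGCGG. Among 32851 mouse promoters of the same length, 5.66% held either core, 33.8% held CCAAT and 32.7% held GGGCGG. Other forms of the sterol element were not searched. The stretches below show both genes with a searched core and 2 genes without either searched form in this window. Each runs up to the first base that GENCODE M21 places in an exon. They are written 5′ to 3′ on the gene's strand with the sterol element cores and CCAAT, or ATTGG on the other strand, in capitals.
Hmgcs1: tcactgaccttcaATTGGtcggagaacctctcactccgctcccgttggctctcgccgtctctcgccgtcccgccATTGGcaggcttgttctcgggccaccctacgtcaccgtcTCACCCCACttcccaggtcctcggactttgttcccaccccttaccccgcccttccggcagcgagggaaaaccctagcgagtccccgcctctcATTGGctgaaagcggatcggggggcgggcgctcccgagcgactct
Srebf2: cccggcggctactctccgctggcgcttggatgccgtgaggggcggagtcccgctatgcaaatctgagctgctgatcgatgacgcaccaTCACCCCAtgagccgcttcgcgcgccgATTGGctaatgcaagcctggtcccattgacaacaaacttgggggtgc
Insig1: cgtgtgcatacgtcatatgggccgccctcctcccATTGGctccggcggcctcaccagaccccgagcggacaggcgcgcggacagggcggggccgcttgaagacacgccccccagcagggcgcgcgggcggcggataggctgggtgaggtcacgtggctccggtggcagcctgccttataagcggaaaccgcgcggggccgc
Cyp51: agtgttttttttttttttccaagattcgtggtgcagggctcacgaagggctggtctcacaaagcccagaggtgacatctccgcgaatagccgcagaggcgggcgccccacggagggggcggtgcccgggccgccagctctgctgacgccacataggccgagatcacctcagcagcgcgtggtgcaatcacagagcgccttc

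These stretches lie at chr13:119690101-119690350 (plus strand) for Hmgcs1, chr15:82147019-82147180 (plus) for Srebf2, chr5:28071162-28071362 (plus) for Insig1 and chr5:4104747-4104947 (minus) for Cyp51. In Hmgcs1 the 2 core forms share a run that starts 137 bases before the RefSeq start. In Srebf2 the core starts 162 bases before it, and a CCAAT in reverse starts 135 bases before it. The single CCAAT of Cyp51 starts 29 bases before the RefSeq start, within a GENCODE exon, and is not shown. A match is a description of letters, and its absence from this window says nothing of the factor. Whether these letters bear on the transcript levels of the genes was not tested.

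The mevalonate steps are represented by Hmgcs1 and Idi1. Values are given for control replicate 1, control replicate 2, HDAC KO replicate 1 and HDAC KO replicate 2, always in that order. Hmgcs1, the cytosolic HMG-CoA synthase of the pathway, lies on chromosome 13 (119690379 to 119708260, plus strand, GRCm38). Control replicates 1 and 2 had 162 and 90.1 TPM of it, and HDAC KO replicates 1 and 2 had 64.2 and 62.6 TPM. The HDAC KO libraries lay close together and below both controls, and control replicate 1 stood 1.80 times above control replicate 2. The log2 fold change, on the log2(TPM + 1) scale used throughout, was -0.92 (SE 0.30; limma adjusted p = 0.204), and -0.50 without control replicate 1. An antisense gene, Gm48342, covers 12.1% of the exon bases of Hmgcs1, and the sources used here do not state whether counting used strand, so their reads may not be told apart. Gm48342 was at 6.14 and 4.63 TPM in control mice, against 2.28 and 2.39 TPM under HDAC KO.

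Idi1 (chromosome 13, 8885501 to 8892451, plus strand) encodes the isomerase that makes dimethylallyl diphosphate, the starter of isoprenoid chains. It was the lowest of the 8 genes in level, with 3.54 and 2.67 TPM in the controls against 1.83 and 1.47 TPM under HDAC KO. Both HDAC KO values lay below both controls, at a log2 fold change of -0.63 (SE 0.30; limma adjusted p = 0.362). These levels rest on 83, 50, 46 and 43 reads in the same order, the fewest of any member. They are uncertain for another reason, because transcripts of 4 other genes match that of Idi1 over at least 200 bases at 90% identity or more. The only one of the 4 listed in the table, Gm35570, is a processed pseudogene (chromosome 5, 87369803 to 87370483) that matches over 681 bases at 97.7%, and it was listed at 25.9, 20.9, 17.2 and 13.3 TPM, above Idi1 itself in each library. Its log2 fold change was -0.58 (SE 0.22; limma adjusted p = 0.261), and reads of the 2 loci may be divided between them.

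**Figure D1:**
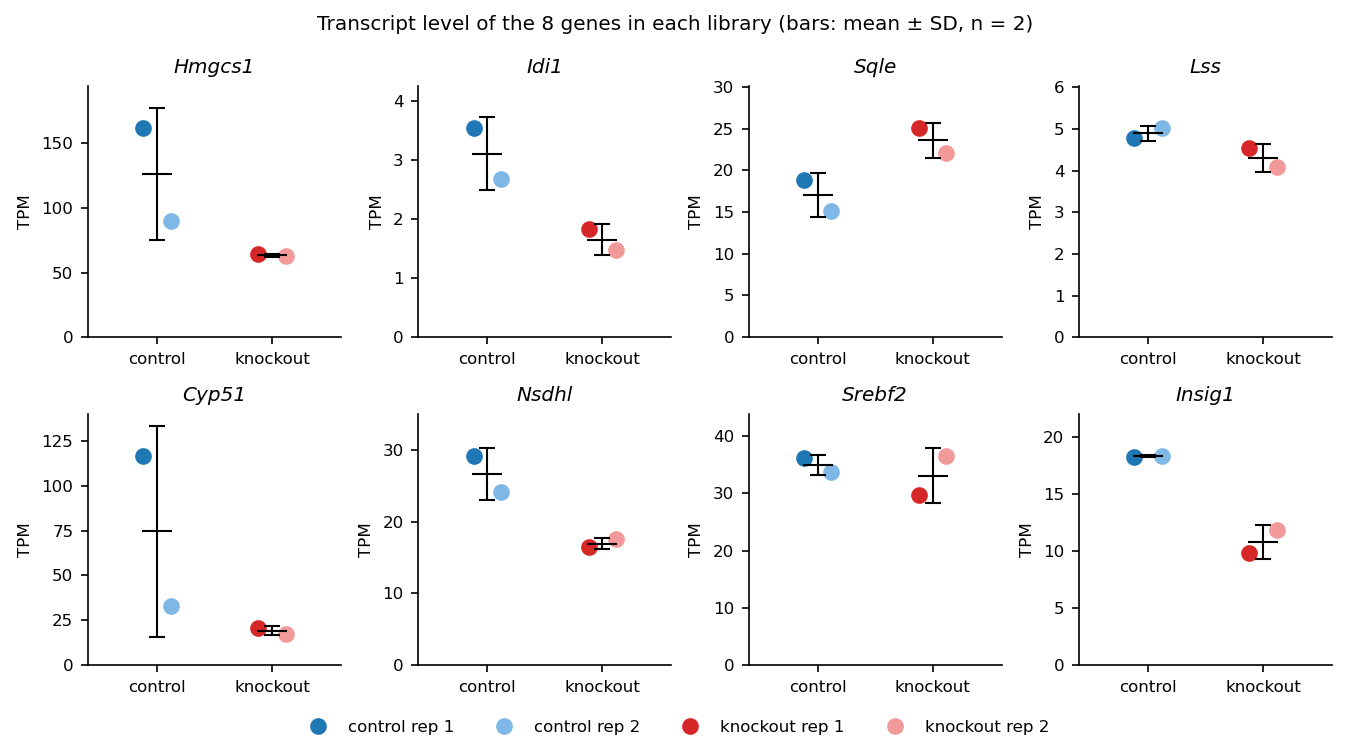
Transcript level in TPM (vertical axes, each starting at 0) of the 8 genes in the control and HDAC KO libraries; each point is 1 library and black bars are the mean ± SD (n = 2). Control replicate 1 stands above the other 3 libraries for Cyp51 (117 TPM) and Hmgcs1 (162 TPM), Sqle is higher in both HDAC KO libraries, and Srebf2 overlaps.

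The sterol steps are represented by Sqle, Lss, Cyp51 and Nsdhl. Sqle (chromosome 15, 59315077 to 59331192, plus strand) encodes squalene epoxidase, the oxygen-dependent enzyme that starts the sterol branch and is a rate-limiting step of the pathway. It was at 18.8 and 15.1 TPM in control mice, against 25.1 and 22.1 TPM under HDAC KO. The groups did not overlap, and Sqle was the 1 member that was higher. Its log2 fold change was 0.46 (SE 0.20, 95% interval -0.05 to 0.96, adjusted p = 0.320 by limma). After median-ratio scaling it was 0.23 and the groups overlapped.

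Lss (chromosome 10, 76531588 to 76557138, plus strand) encodes lanosterol synthase, which folds the epoxide into the first sterol. It was at 4.78 and 5.03 TPM in control mice, against 4.55 and 4.08 TPM under HDAC KO. The HDAC KO values were lower by a small margin, with a log2 fold change of -0.15 (SE 0.26, 95% interval -0.80 to 0.49, adjusted p = 0.807 by limma). Its level per length is sensitive to the gene model, since the union of its exons spans 10787 bases and its longest coding transcript 4667. The same holds for Sqle, with 5546 and 2758 bases.

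Cyp51 (chromosome 5, 4081145 to 4104746, minus strand) encodes the cytochrome P450 that removes a methyl group from lanosterol. It was at 117 and 33.1 TPM in control mice, against 20.8 and 17.3 TPM under HDAC KO, from 3442, 782, 658 and 637 reads. The difference between the control libraries, 3.52 times, was larger than that between control replicate 2 and the mean of the HDAC KO libraries, 1.74 times. The log2 fold change was -1.67 (SE 0.57, 95% interval -3.10 to -0.24, adjusted p = 0.224 by limma), -0.77 without control replicate 1 and -2.56 without control replicate 2. Its adjusted p ranged from 0.0101 to 0.602 over the settings tried.

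Nsdhl (chromosome X, 72918557 to 72958514, plus strand) encodes a sterol dehydrogenase that acts after Cyp51 in removing the remaining methyl groups. It was at 29.2 and 24.1 TPM in control mice, against 16.4 and 17.5 TPM under HDAC KO. The groups did not overlap and each pair of replicates lay close together. The log2 fold change was -0.62 (SE 0.19, 95% interval -1.09 to -0.15, adjusted p = 0.189 by limma), and it stayed between -0.85 and -0.48 over the settings tried.

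Of the regulators, Insig1 was lower without overlap between the groups and Srebf2 overlapped. Insig1 (chromosome 5, 28071363 to 28078662, plus strand), a sterol-sensing anchor of the SREBP complex and itself a target of SREBP-2, was at 18.3 and 18.4 TPM in control mice, against 9.80 and 11.9 TPM under HDAC KO. The control values were nearly equal, so its log2 fold change of -0.72 (SE 0.20, 95% interval -1.22 to -0.21) barely moved when either control was left out, to -0.72 and -0.71. It moved more with the HDAC KO libraries, to -0.59 without replicate 1 and -0.84 without replicate 2. Its adjusted p of 0.168 by limma was the smallest of the 8 and did not pass. Srebf2 (chromosome 15, 82147181 to 82205379, plus strand) was at 36.1 and 33.7 TPM in control mice, against 29.7 and 36.6 TPM under HDAC KO, one below and the other above both controls. Its log2 fold change was -0.08 (SE 0.18, 95% interval -0.53 to 0.38, adjusted p = 0.863 by limma), and it was 0.07 without HDAC KO replicate 1.

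In order of level, the controls had Hmgcs1 first, then Cyp51, Srebf2, Nsdhl, Insig1, Sqle, Lss and Idi1. Neighbours in that order overlapped between the 2 control libraries for Hmgcs1 and Cyp51, for Cyp51 and Srebf2, and for Insig1 and Sqle. In the HDAC KO libraries the order was Hmgcs1, Srebf2, Sqle, Cyp51, Nsdhl, Insig1, Lss and Idi1, with an overlap only between Cyp51 and Nsdhl. Summed over the 8 genes, the level was 390 and 222 TPM in the controls against 172 and 173 TPM under HDAC KO. The 2 controls thus differed from each other by more than control replicate 2 differed from the HDAC KO libraries.

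The other enzymes of the pathway were taken from lists, and 6 of the 8 genes are in them too. Of 19 synthesis enzymes reported, all of them tested, 0 passed the adjusted threshold by limma, 12 were lower without overlap between the groups, 4 were higher without overlap (Pmvk, Fdps, Fdft1 and Sqle), and 5 were lower and 0 higher at an unadjusted p under 0.05. Over all tested genes 14.3% were lower and 36.7% higher without overlap, and 4.46% lower and 13.4% higher at that p. Of the 13 enzymes that are not among the 8 genes, 7 were lower, 3 higher and 3 overlapped. The median log2 fold change of the 19 was -0.35, and over these 13 it was -0.31, or -0.17 without control replicate 1.

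Acat2, which makes acetoacetyl-CoA, was at 39.4 and 27.5 TPM in the controls, then 20.6 and 19.9 TPM under HDAC KO. Ebp, a sterol isomerase, was at 52.7, 35.3, 25.8 and 27.8 TPM in the same order. In both, as in Hmgcs1, control replicate 1 was highest and control replicate 2 next, while the order of the HDAC KO libraries differed between Hmgcs1 and Ebp.

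Mvd, the mevalonate diphosphate decarboxylase, was lower by 0.57 on the log2 scale with control replicate 1 and lower by 0.20 without it (log2 fold changes -0.57 and -0.20). Tm7sf2, a sterol reductase, was at 3.63 and 3.82 TPM in control mice, against 2.13 and 2.09 TPM under HDAC KO. Pmvk, the phosphomevalonate kinase, was at 11.3, 13.6, 15.9 and 14.8 TPM, one of the enzymes that were higher, with a log2 fold change of 0.28 that came to 0.06 after median-ratio scaling. In share of the summed TPM of these 19 enzymes, Cyp51 held 20.5% and 9.59% in the controls and 7.27% and 6.16% under HDAC KO, while Sqle held 3.31%, 4.37%, 8.75% and 7.90%. These shares depend only on the genes of the pathway, so a common scaling of a library leaves them as they are. They are parts of 1 total, so a lower level of its largest genes raises the other shares. From control replicate 1 to control replicate 2 the share of Sqle rose while its TPM fell from 18.8 to 15.1.

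**Figure D2:**
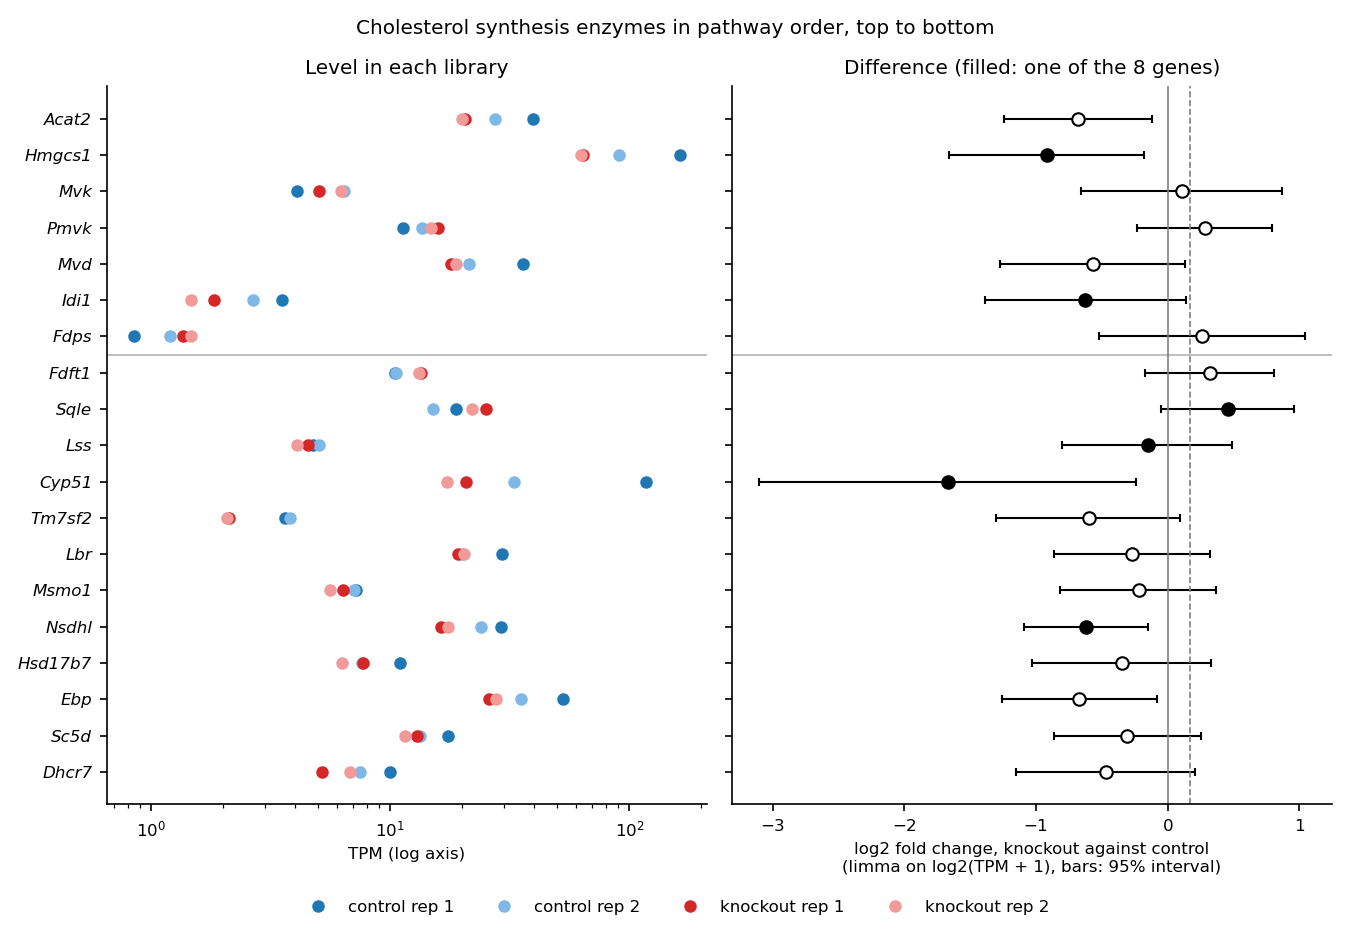
Left, level of 19 cholesterol synthesis enzymes in each library (TPM, log axis), in pathway order with the mevalonate steps above the grey line; right, log2 fold change of HDAC KO against control libraries by limma with 95% intervals, filled for the 8 genes and open for the others, with 0 as a solid and the median of all tested genes (0.17) as a dashed line. Cyp51 is the lowest at -1.67 and has the widest interval, and Sqle is highest at 0.46.

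Of 11 listed genes of the machinery that senses sterols and cuts SREBP, 1 was lower without overlap (Insig1), 3 were higher and 7 overlapped, beside 14.3% lower and 36.7% higher over the table, with a median log2 fold change of 0.05 (-0.19 after median-ratio scaling) and 0 calls by limma. Srebf1, which encodes SREBP-1, was at 17.1 and 17.6 TPM in control mice, against 21.4 and 22.7 TPM under HDAC KO (log2 fold change 0.33, SE 0.17, adjusted p = 0.396). The log2 fold change was 0.38 for Rnf145, a ubiquitin ligase of the endoplasmic reticulum, and 0.17 for Ubxn4. After median-ratio scaling it was 0.10 for Srebf1, 0.15 for Rnf145 and -0.06 for Ubxn4.

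Of 5 genes of sterol uptake and other SREBP-2 targets, 4 were tested, 1 was lower without overlap and 3 overlapped (14.3% lower over the table). Lpin1, a phosphatidate phosphatase and coregulator, was at 22.4, 21.5, 12 and 14.2 TPM, both HDAC KO values below both controls, as for Insig1. Stard4, a sterol carrier, and Tmem97, a membrane protein of sterol handling, had log2 fold changes of -0.19 and -0.20 with overlap between the groups.

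Of 16 listed fatty acid targets of SREBP-1, 15 were in the table and tested, 6 were lower and 2 higher without overlap (14.3% and 36.7% over the table), and the median log2 fold change was -0.16. Acss2, an acetyl-CoA synthetase, was at 46.0, 25.1, 18.0 and 17.4 TPM, again with control replicate 1 highest. Gpam, which starts triglyceride synthesis, was at 81.1, 60.3, 44.4 and 45.1 TPM. Mid1ip1, an activator of acetyl-CoA carboxylase, went the other way, at 14.3, 16.9, 28.9 and 29.8 TPM (log2 fold change 0.88, SE 0.18, limma adjusted p = 0.115).

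Genes of sterol export and of the LXR response, which answers to oxysterols, formed the next list. Of 10 listed, 8 were in the table and tested, 6 were higher and 0 lower without overlap (36.7% and 14.3% over the table), and the median log2 fold change was 0.67 (0.44 after median-ratio scaling), with 0 calls by limma. Abca1, the exporter that loads cholesterol on apolipoprotein A-I, was at 23.0 and 48.6 TPM in control mice, against 151 and 146 TPM under HDAC KO (log2 fold change 2.11, SE 0.35, adjusted p = 0.106). Apoe, an apolipoprotein that macrophages make in quantity, was at 77.5, 289, 579 and 569 TPM (1.93, SE 0.60, adjusted p = 0.192), and 0.99 without control replicate 1. Mylip, an LXR-induced ubiquitin ligase, was at 26.8, 34.9, 57.1 and 60.6 TPM (0.92, SE 0.19, adjusted p = 0.114).

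The last lists were small. Of the lysosomal genes, Npc2 (46.3, 36.3, 60.5 and 63.0 TPM) and Npc1 (8.81, 8.36, 11.7 and 10.8 TPM), which pass cholesterol out of the lysosome, were higher, while Lipa, the acid lipase that frees it, was lower at 79.3, 76.5, 52.3 and 56.1 TPM. Of 5 tested oxysterol and bile acid enzymes, 1 was lower and 2 higher without overlap, beside 14.3% and 36.7% over the table. Cyp27a1 was lower at 43.3, 37.7, 30.2 and 32.6 TPM, Cyp39a1 was higher at 12.2, 10.8, 14.5 and 12.7 TPM, and Ch25h was low in level at 0.216, 2.02, 2.22 and 3.62 TPM. All of these had an adjusted p above 0.05 by limma, and those of Npc2 and Lipa were 0.201 and 0.179. After median-ratio scaling the log2 fold change of Cyp39a1 came from 0.22 to 0.00, and that of Npc1 from 0.35 to 0.14.

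The cell types in the libraries moved with these results, and in such RNA fewer cells of a type and less RNA per cell cannot be told apart. The 12 proximal tubule markers summed to 43363 and 9453 TPM in control mice, against 5020 and 5843 TPM under HDAC KO. Kap alone, a kidney androgen-regulated gene, held 31062 TPM of control replicate 1, and the other 11 summed to 12301, 8466, 4016 and 4641 TPM. That order, with control replicate 1 first, control replicate 2 next and the HDAC KO libraries lowest, is that of Hmgcs1, Idi1, Cyp51, Nsdhl, Acat2 and Ebp. Insig1, Lss and Tm7sf2 were also lower without overlap but were not highest in control replicate 1. All 12 markers were above 0 in every library and 11 of 12 were lower without overlap, beside 14.3% lower over all tested genes. The part of tubular RNA in the lower synthesis genes was not tested.

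The 10 macrophage and immune markers summed to 62.4 and 151 TPM in control mice, against 657 and 758 TPM under HDAC KO. All 10 were higher without overlap, as were Abca1 and Apoe, beside 36.7% higher over all tested genes. The part of macrophage and immune cells in the differences of Abca1 and Apoe was not tested. The 10 podocyte markers summed to 351, 799, 130 and 340 TPM and the 8 endothelial markers to 297, 643, 233 and 480 TPM, so that control replicate 1 and HDAC KO replicate 2 were alike in podocyte signal. The 8 mesangial and smooth muscle markers summed to between 190 and 285 TPM. The 6 parietal epithelial markers summed to 80.7, 134, 240 and 296 TPM and the 6 proliferation markers to 40.8, 67.1, 109 and 123 TPM. All of both lists were higher without overlap (36.7% over the table). Of 8 markers of later tubule segments (loop, distal tubule, collecting duct), 5 were lower and 1 higher without overlap (14.3% and 36.7% over the table). Their median log2 fold change was -0.93, while their sum, led by Umod, lay between 2176 and 2558 TPM. The 4 red blood cell markers in the table summed to 40.5, 129, 19.2 and 84.3 TPM, and no marker of these lists was at 0. The part of these cell types in the results was not tested. Hdac1 was at 19.3 and 18.6 TPM in control mice, against 22.9 and 22.5 TPM under HDAC KO, and Hdac2 at 20.2, 24.1, 23.5 and 20.9 TPM, so neither target checks the labels in whole-glomerulus RNA. Whole reads recovered from the values numbered 15808117 and 12876939 in the controls, and 17476365 and 20943138 under HDAC KO. Mitochondrial transcripts held 40.2% and 46.5% of the TPM in the controls, and 40.8% and 38.7% under HDAC KO. The TPM of every other gene is a share of what remains.

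**Figure D3:**
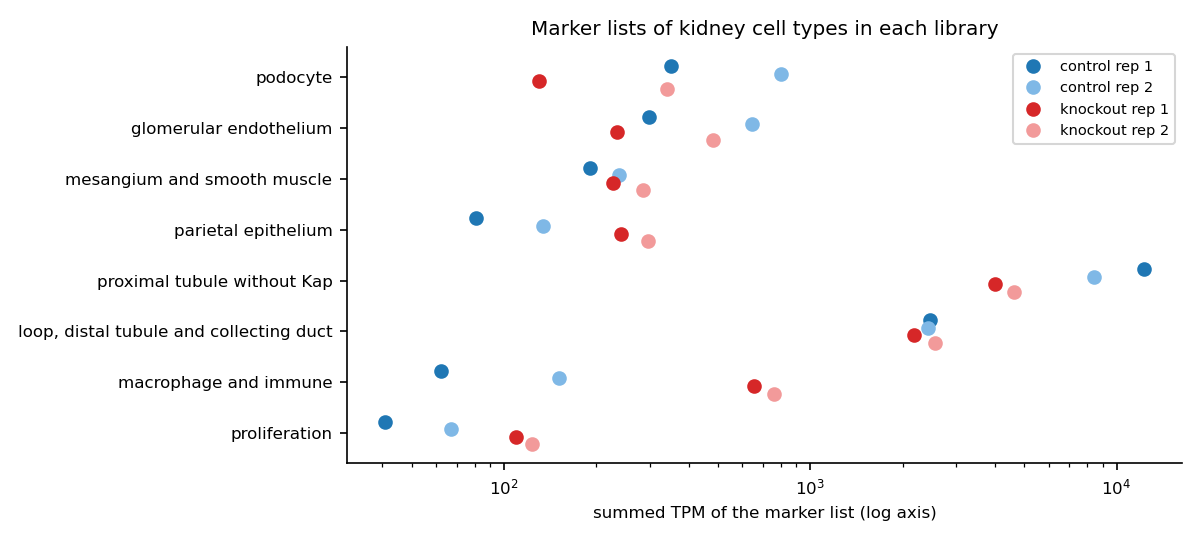
Summed TPM (log axis) of 8 marker lists in each library, the proximal tubule list without Kap; each point is 1 library. Proximal tubule markers are highest in control replicate 1 (12301 TPM) and lowest under HDAC KO (4016 and 4641 TPM), while macrophage and immune markers are higher in both of these (657 and 758 TPM).

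The 8 genes differed among themselves in their course over the 4 libraries. Against their mean profile (log2(TPM + 1), centred on each gene's mean), Nsdhl and Idi1 lay closest, at Euclidean distances of 0.16 and 0.18 log2 units, and Cyp51 and Sqle farthest, at 1.48 and 1.01. Among other genes with a mean of at least 10 TPM, the 5 nearest to that mean profile were Higd2a (distance 0.04), Cox8a (0.05), Rars2 (0.05), Lman2l (0.06) and Gfm1 (0.07). Cox8a, a subunit of cytochrome c oxidase, was at 608, 440, 361 and 367 TPM. With 4 libraries, many genes can lie this close, and nothing about shared function follows from it.

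Leaving out single libraries moved the sizes. It can change a direction only where the groups overlap, which among the members holds for Srebf2 alone. Srebf2 came to 0.07 without HDAC KO replicate 1. Without control replicate 1 the log2 fold changes of Hmgcs1, Cyp51, Nsdhl and Idi1 came to -0.50, -0.77, -0.48 and -0.47, and that of Sqle to 0.61. Without control replicate 2, Hmgcs1 (-1.34, adjusted p = 0.0167 by limma) and Cyp51 (-2.56, adjusted p = 0.0101) passed the threshold, in a fit where the lone control is assumed to vary like the HDAC KO libraries, and where 2080 genes of the table passed. Over all tested genes the median gap between replicates was 0.39 log2 units for the controls and 0.20 for HDAC KO.

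**Figure D4:**
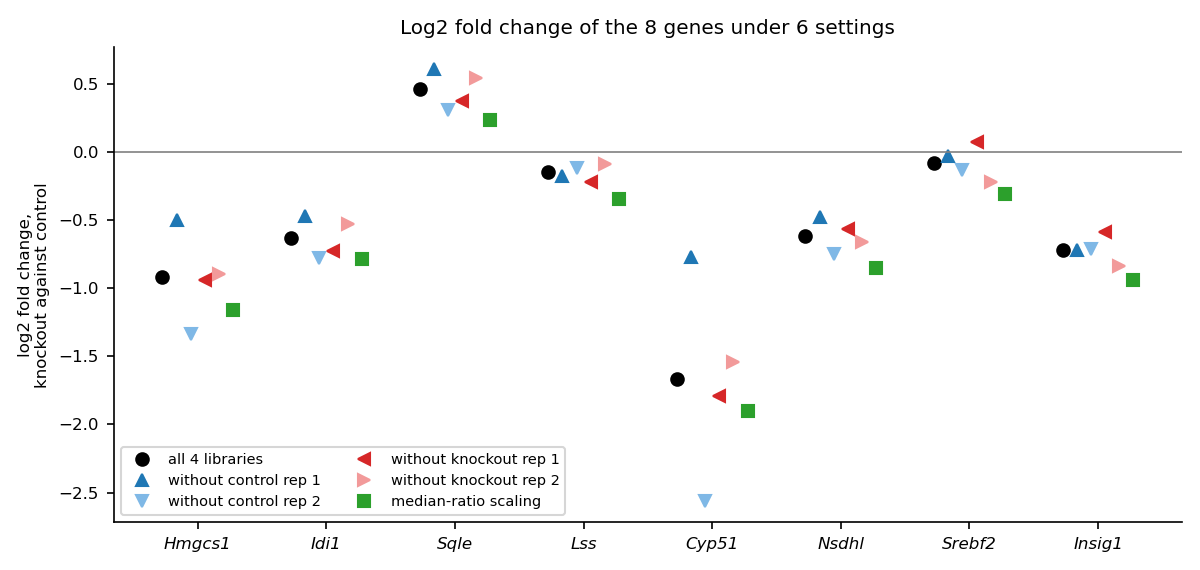
Log2 fold change of HDAC KO against control libraries (vertical axis) for the 8 genes with all 4 libraries, with each library left out, and after median-ratio scaling. Hmgcs1 and Cyp51 spread most, from -1.34 to -0.50 and from -2.56 to -0.77, Srebf2 crosses 0 without HDAC KO replicate 1 (0.07), and Sqle stays above 0.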

How the data were processed

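The authors deposited 1 table of TPM values per Ensembl gene, with 4 columns that each sum to 1000000 and were matched to the samples by name. Per the submitters' processing notes the build was GRCm38.p6, and STAR 2.7.9, featureCounts 2.0.0, fastp 0.20 and DESeq2 1.30.1 appear with no role. The sources used here do not give the annotation, strand setting or gene filter. TPM has no depth, but TPM times the union of a gene's exons in GENCODE M21 gave whole multiples of 1 step per library for 22176 genes (97.2%, relative tolerance 1e-06), read here as reads. They include no UMIs.

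All genes were tested with limma 3.58.1 in R 4.3.3 (moderated with a mean trend) on log2(TPM + 1), for 18612 genes with a mean of at least 1 TPM, with Benjamini-Hochberg adjustment and a threshold of 0.05. With 2 libraries a group, 0.333 is the smallest two-sided p of an exact permutation test. Replicates are separate pools of mice. Simulated reads were drawn with a dispersion of 0.02 for HDAC_KO against control (5 runs, 18170 genes tested on average). On them the test called 23.9%, 95.8% and 98.8% of 2-fold, 4-fold and 8-fold differences, with 71 false calls. The real spread between controls was not simulated. The changed genes were drawn only among genes with a mean of at least 5 TPM, a level that Idi1 and Lss do not reach. Look-alike transcripts were found with blastn 2.17.0. Tables and plots used Python 3.11.15, pandas 2.3.3 and matplotlib 3.10.9.

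The genes named were the 8 genes and in each pathway list up to 3 others with the smallest p; some genes of the lists are not reported here, and list counts, medians and shares leave them out; the 4 higher enzymes and Kap were also named after their values were seen, as were Gm35570 and Gm48342. The 8 genes and the lists were chosen with earlier results of these data known.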

Additional observations from a re-analysis of the deposited data

How the results depend on the processing

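Each of the 8 log2 fold changes was recomputed under up to 13 alternatives. Changing the filter, fitting without trend and the replicate block leave the log2 fold change itself as it was. Leaving out a library or changing the pseudocount cannot reverse a gene whose groups do not overlap. Many directions were thus fixed in advance. The recomputed values numbered 102 in all. Of these, 99 kept their direction and their side of the threshold, 2 passed it (Hmgcs1 and Cyp51 without control replicate 2), and 1 reversed, Srebf2, at 0.07 without HDAC KO replicate 1, where leaving out single libraries gave -0.22 to 0.07. The number of the 8 past the threshold was 0 under every alternative, voom on the recovered reads and limma without trend included, except 2 without control replicate 2, a range of 0 to 2 over the libraries left out. The median of the 8 was -0.40 with a pseudocount of 5, -0.82 with median-ratio scaling and with quantile normalization, -0.76 with voom, and between -0.73 and -0.48 with single libraries left out. The count of genes called over the table, 1 as reported, was 0 with quantile normalization, with limma without trend and with voom, and 0 to 2080 with single libraries left out. The count of the 8 lower without overlap, 6, was 6 or 7 under alternatives added after seeing the data. Leaving out a library cannot lower this count. Only median-ratio scaling, quantile normalization and voom could, and they gave 6, 7 and 6. With the replicate number as a block the median was -0.62, with 0 of the 8 and 1 gene of the table called; same-numbered libraries' deviations correlated at 0.14 over genes, and the labels do not say that numbers mark a shared batch. At a mean of at least 5 TPM, Idi1 and Lss were not tested. Idi1 rests on the fewest reads of the 8 genes, 43 to 83 per library. The cause of these changes was not tested.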
